A study of Bos taurus with 16 samples.

Results

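ID1, ID2 and ID3 were followed in cultured bovine theca cells across 4 treatment groups: LH+BMP6, BMP6, LH and control. They were read from every probe set to which the platform annotation gives one of these symbols. These are 5 of the 24016 probe sets tested, with a brighter and a dimmer one for ID1, likewise 2 for ID2, and 1 for ID3. In the whole array 9155 genes are named, and ID1, ID2 and ID3 without further words stand for the brightest probe set of each. The fourth gene of the family, ID4, is not named by the annotation used here.

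The ID genes encode small helix-loop-helix proteins that lack a DNA-binding region. They pair with the E proteins (TCF3, TCF4 and TCF12) and so keep these partners from binding DNA together with tissue-specific factors of the basic helix-loop-helix (bHLH) family. Bone morphogenetic proteins (BMPs) bind paired type I and type II receptors, which activate SMAD1, SMAD5 and SMAD9, and the ID genes are among the best known direct targets of these SMADs in many mammalian cell types. In the ovary, BMP6 is made by cells of the follicle and is known to hold back androgen production by theca cells.

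Theca interna cells, the hormone-producing layer of the follicle wall, came from ovaries of adult cattle, with cells of about 50 follicles of 4 to 6 mm pooled. They were kept for 6 days in serum-free medium. For 4 days from day 3 on, the LH+BMP6 cultures received luteinising hormone (LH) at 160 pg/ml together with BMP6 at 10 ng/ml. The BMP6 and LH cultures received 1 of the factors alone at the same dose, and control cultures received neither. Each group holds 4 Affymetrix bovine GeneChip arrays, from 4 experiments on different batches of ovaries. Values are log2 signals, group levels are means ± SD of 4 arrays, and differences are ± SE from limma. A difference is called where its p, adjusted over all probe sets, is under 0.05.

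The markers of steroid-making theca cells (7 of 7 measured) averaged 7.19 to 7.97 on LH+BMP6 arrays and 7.25 to 7.58 on BMP6 arrays, against 10.27 to 11.42 on LH arrays and 9.78 to 10.30 on control arrays. INSL3, a hormone made by theca cells, averaged 8.88 in LH+BMP6 and 8.38 in BMP6 cultures, against 14.07 in LH and 14.08 in control cultures. It fell by 5.20 in LH+BMP6 against LH and by 5.70 in BMP6 against control (adjusted p = 6.31e-06 and 2.69e-06 by limma). Of 6 granulosa markers, FSHR, CYP19A1, AMH and FOXL2 had group means of 3.42 to 4.82, beside lower quartiles of 4.31 to 4.43 on the arrays. HSD17B1 lay higher, at 5.58 in LH+BMP6 and 5.47 in BMP6 cultures, against 6.08 in LH and 6.33 in control cultures. CDH2 lay higher only with BMP6, at 6.35 in LH+BMP6 and 6.34 in BMP6 cultures. In LH and control cultures it averaged 4.58 and 4.67, within the range of the first 4 markers. On 3 arrays, all without BMP6 (LH replicate 1 and control replicates 1 and 3), 9 spiked-in hybridisation controls averaged 8.66 to 8.71, while they averaged 9.84 to 10.17 on the 13 others. These are called the 3 weak-spike arrays here, and results are also given without them.

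BMP6 raised ID1, ID2 and ID3, whether LH was present or not. ID1 stood 6.54-fold higher in BMP6 cultures than in control and 7.06-fold higher in LH+BMP6 cultures than in LH cultures. ID3 was 3.07-fold and 3.60-fold higher in these comparisons, and ID2 2.64-fold and 3.17-fold higher. LH alone gave no called difference in any of the 3 genes.

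ID1, an inhibitor of differentiation best known for its quick response to BMPs, had log2 signals of 11.27, 10.57, 11.18 and 11.12 in BMP6 replicates 1 to 4, against 7.87, 8.48, 8.57 and 8.37 in control replicates 1 to 4. It had 11.32, 10.62, 11.03 and 11.26 in LH+BMP6 replicates 1 to 4, against 7.73, 8.27, 8.56 and 8.38 in LH replicates 1 to 4. Every array with BMP6 lay above every array without it. BMP6 and LH+BMP6 cultures were lowest in replicate 2, while LH and control cultures were lowest in replicate 1. Group means were 11.03 ± 0.32 with BMP6 and 8.32 ± 0.31 in control, a difference of 2.71 ± 0.20 (95% interval 2.29 to 3.13, adjusted p = 1.59e-07 by limma). With LH they were 11.06 ± 0.32 for LH+BMP6 and 8.24 ± 0.36 for LH, a difference of 2.82 ± 0.20 (2.40 to 3.24, adjusted p = 1.09e-07). Ranked by difference among 9155 named genes, ID1 came 2nd in BMP6 against control and 3rd in LH+BMP6 against LH.

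ID2, which in many tissues limits the activity of E proteins in precursor cells, had 10.56, 10.17, 10.62 and 10.40 in BMP6 replicates 1 to 4, against 8.52, 8.96, 9.35 and 9.32 in control replicates 1 to 4. It had 10.45, 10.47, 10.68 and 10.68 in LH+BMP6 replicates 1 to 4, against 8.42, 8.93, 9.34 and 8.94 in LH replicates 1 to 4. Here too the arrays with BMP6 all lay above those without it, and the 4 LH+BMP6 arrays lay closer together than the LH arrays. The difference was 1.40 ± 0.18 for BMP6 against control (10.44 ± 0.20 with BMP6 and 9.04 ± 0.38 in control, 95% interval 1.02 to 1.78, adjusted p = 5.01e-05 by limma). For LH+BMP6 against LH it was 1.66 ± 0.18 (10.57 ± 0.13 in LH+BMP6 and 8.91 ± 0.37 in LH cultures, interval 1.28 to 2.05, adjusted p = 8.49e-06). ID2 came 56th and 34th among the named genes in these rankings.

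The dimmer ID2 probe set moved the same way. It had 6.51, 6.73, 6.71 and 6.78 in BMP6 replicates 1 to 4, against 5.32, 5.45, 5.84 and 5.78 in control replicates 1 to 4. It had 6.60, 7.09, 6.84 and 6.91 in LH+BMP6 replicates 1 to 4, against 5.08, 5.36, 6.12 and 5.78 in LH replicates 1 to 4. All arrays with BMP6 exceeded all arrays without it. The differences were 1.09 ± 0.18 (2.13-fold, adjusted p = 0.000462 by limma) for BMP6 against control and 1.27 ± 0.18 (2.42-fold, adjusted p = 0.000103) for LH+BMP6 against LH. The 95% intervals of the 2 ID2 probe sets overlapped in both comparisons, at 0.71 to 1.47 and 0.89 to 1.66 for this one.

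ID3, the third family member on the array and like ID1 a BMP target in many cell types, had 9.22, 8.65, 9.15 and 9.13 in BMP6 replicates 1 to 4, against 7.10, 7.70, 7.57 and 7.30 in control replicates 1 to 4. It had 9.19, 8.88, 8.99 and 9.02 in LH+BMP6 replicates 1 to 4, against 6.54, 7.21, 7.55 and 7.37 in LH replicates 1 to 4. The arrays with BMP6 lay above all others, with replicate 2 lowest in BMP6 and in LH+BMP6 cultures, and LH replicate 1 lay furthest down of all 16. The difference was 1.62 ± 0.18 for BMP6 against control (9.04 ± 0.26 with BMP6 and 7.42 ± 0.27 in control, 95% interval 1.23 to 2.01, adjusted p = 1.53e-05 by limma). For LH+BMP6 against LH it was 1.85 ± 0.18 (9.02 ± 0.13 in LH+BMP6 and 7.17 ± 0.44 in LH cultures, interval 1.46 to 2.24, adjusted p = 3.88e-06). ID3 came 33rd and 24th in the rankings.

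The dimmer ID1 probe set did not follow the brighter one. It had 4.21, 4.21, 4.21 and 4.24 in BMP6 replicates 1 to 4, against 4.12, 4.16, 4.14 and 4.18 in control replicates 1 to 4. It had 4.14, 4.08, 4.25 and 3.98 in LH+BMP6 replicates 1 to 4, against 3.92, 4.12, 4.25 and 4.09 in LH replicates 1 to 4. Every one of these signals lay under the lower quartile of its own array. The BMP6 arrays exceeded the control arrays without overlap, yet the difference was only 0.07 ± 0.08 and was not called (adjusted p = 0.614 by limma), and with LH it was 0.02 ± 0.08 (adjusted p = 0.922). Where both ID1 probe sets were averaged on each array, the ID1 difference was 1.39 for BMP6 against control and 1.42 for LH+BMP6 against LH, and it was still called in both. Whether the dimmer probe set measures ID1 was not tested, since probe sequences were not used here.

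**Figure D1:**
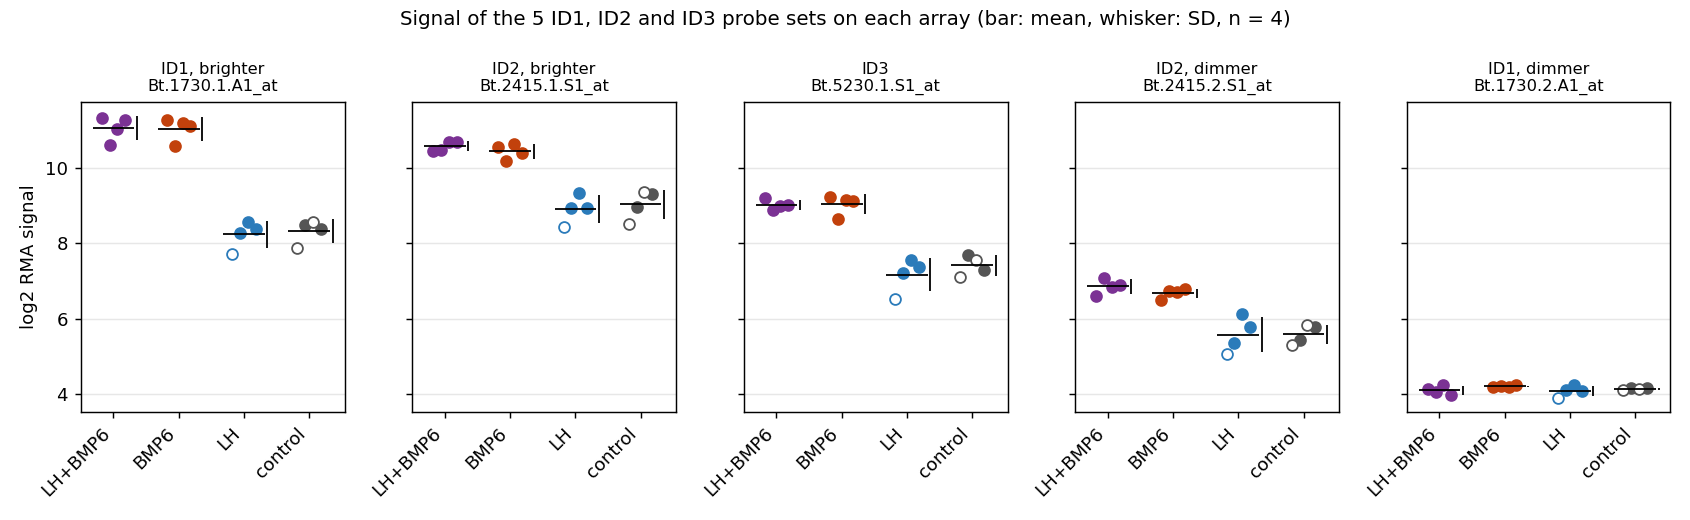
Log2 RMA signal (y axis) of the 5 ID probe sets on each array, by group, with points for arrays, bars for the mean and whiskers for the SD of 4 arrays; open points are the 3 weak-spike arrays. For 4 probe sets all LH+BMP6 and BMP6 arrays lie above all LH and control arrays, while the dimmer ID1 probe set stays between 3.92 and 4.25 in every group.

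In all, 4 of the 5 probe sets were called higher in BMP6 against control, where 8.12% of all probe sets were called higher. In 5 of 5 all BMP6 arrays lay above all control arrays, which held for 10.1% of all probe sets. In LH+BMP6 against LH, 4 of the 5 were called higher, beside 9.99% of all probe sets, and 4 of 5 had no overlap, beside 9.78%. The exact permutation test of the group labels, two-sided, gave p = 0.0286 for each of these 4 in both comparisons. This is the smallest p that 4 against 4 arrays allow, and adjusted over 25 tests it became 0.055, which misses the threshold of 0.05.

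Without the 3 weak-spike arrays the 4 probe sets were still called in both comparisons. BMP6 against control was then 2.61 for ID1, 1.30 for ID2, 1.07 for the dimmer ID2 probe set and 1.53 for ID3. LH+BMP6 against LH was 2.65, 1.50, 1.11 and 1.64 for the same probe sets. LH replicate 1 and control replicate 1, which are among these 3 arrays, held the lowest signal of their groups for ID1, ID2 and ID3. Control replicate 3, also among them, went the other way. It held the highest control signal for ID1 (8.57) and ID2 (9.35). For ID3 it had 7.57, where control arrays ranged over 7.10 to 7.70. Since RNA came from whole cultures, fewer cells of a type and less RNA per cell cannot be told apart, and likewise for more.

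LH+BMP6 cultures, set against control, gave differences close to those of BMP6 alone. They were 2.73 for ID1 (adjusted p = 1.51e-07 by limma), 1.53 for ID2 (adjusted p = 2.09e-05), 1.26 for the dimmer ID2 probe set (adjusted p = 0.00013) and 1.60 for ID3 (adjusted p = 1.72e-05). The dimmer ID1 probe set was at -0.04. So 4 of the 5 probe sets were called higher, beside 9.16% of all probe sets. This comparison uses the same control arrays as BMP6 against control, and the 2 are not independent.

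LH, the pituitary hormone that drives androgen synthesis in theca cells, left the ID genes within the spread of the arrays. In LH against control the differences were -0.08 for ID1 (95% interval -0.51 to 0.34, adjusted p = 0.982 by limma), -0.13 for ID2 (-0.51 to 0.25, adjusted p = 0.969) and -0.25 for ID3 (-0.64 to 0.14, adjusted p = 0.927). They were -0.01 for the dimmer ID2 and -0.06 for the dimmer ID1 probe set. Of the 5 probe sets 0 were called, and of all probe sets 0.0125% were, with 1291 at an unadjusted p under 0.05. LH and control arrays overlapped for every ID probe set. Without LH replicate 1 the signs of ID1 and ID2 turned, to 0.08 and 0.03, while ID3 stayed below 0. These intervals do not exclude a change of up to 0.51 in ID1 or ID2, or 0.64 in ID3, in the downward direction.

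Added to BMP6, LH also gave no called difference. LH+BMP6 against BMP6 was 0.02 for ID1 (95% interval -0.40 to 0.45), 0.13 for ID2 (-0.25 to 0.52) and -0.02 for ID3 (-0.41 to 0.37), each with an adjusted p of 1.00 by limma. Here 0 of the 5 and 0% of all probe sets were called, with 471 at an unadjusted p under 0.05. The interaction asks whether the BMP6 difference is another with LH than without it. It was 0.11 ± 0.28 for ID1 (-0.49 to 0.71), 0.26 ± 0.26 for ID2 (-0.28 to 0.80) and 0.23 ± 0.26 for ID3 (-0.32 to 0.78), with an adjusted p of 1.00 for each. Each interval spans 0. The dimmer ID2 probe set was at 0.17 in LH+BMP6 against BMP6 and at 0.19 ± 0.26 in the interaction, and the dimmer ID1 probe set at -0.11 and -0.05 ± 0.11. Of the 5 probe sets 0 were called, and of all probe sets 0%, with 773 at an unadjusted p under 0.05.

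**Figure D2:**
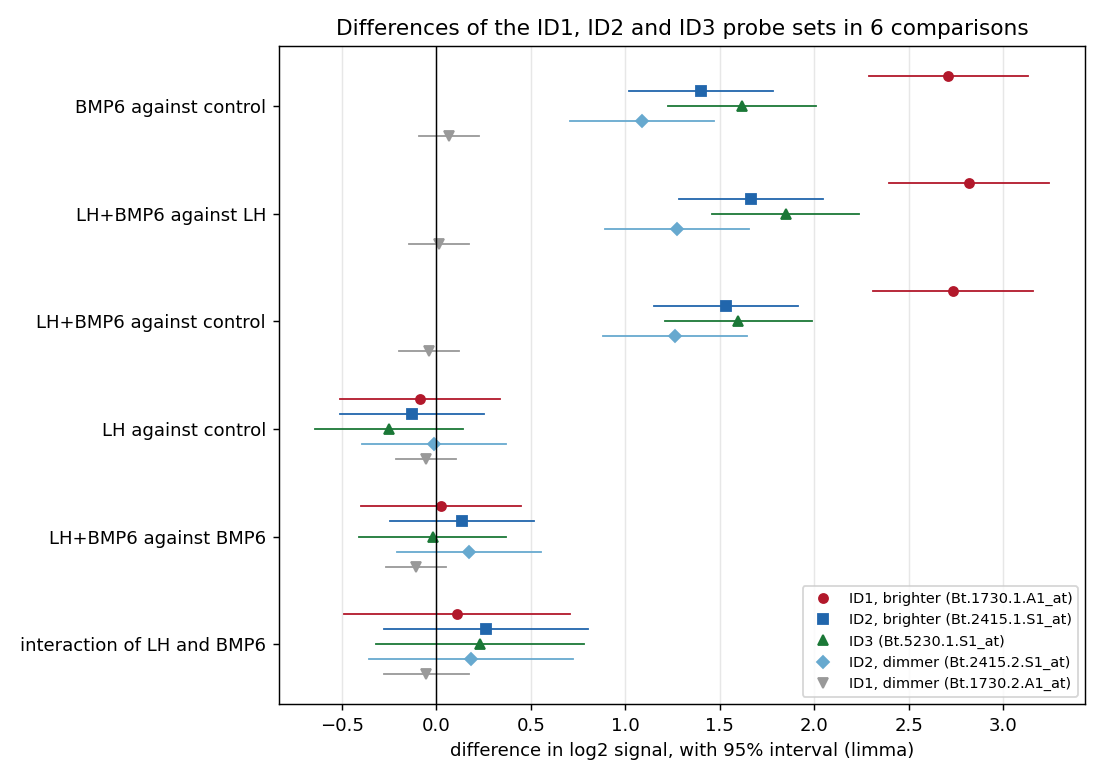
Difference in log2 signal (x axis) of the 5 ID probe sets in 5 comparisons and the interaction, with points for limma estimates and lines for 95% intervals. The 3 comparisons with BMP6 on 1 side only put ID1 at 2.71 to 2.82, ID3 at 1.60 to 1.85, ID2 at 1.40 to 1.66 and the dimmer ID2 probe set at 1.09 to 1.27. The dimmer ID1 probe set in these comparisons, and all 5 probe sets in the other 2 comparisons and the interaction, lie between -0.25 and 0.26.

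The order of the groups was thus LH+BMP6, BMP6, control and LH for ID1, with means of 11.06, 11.03, 8.32 and 8.24, and the same for ID2, with 10.57, 10.44, 9.04 and 8.91. For ID3 it was BMP6, LH+BMP6, control and LH, with 9.04, 9.02, 7.42 and 7.17. In each gene the upper 2 groups did not differ from each other beyond their spread, nor did the lower 2. The step between the upper and the lower pair was the one that passed the test.

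In signal, the brightest probe set of ID1 changed more than those of ID2 and ID3. Within arrays, which cancels shifts shared by a whole array, the change of ID1 exceeded that of ID2 by 1.31 ± 0.12 in BMP6 against control and by 1.16 ± 0.16 in LH+BMP6 against LH. It exceeded that of ID3 by 1.09 ± 0.08 and 0.97 ± 0.12 in the same comparisons. Each of these 4 had an exact permutation p of 0.0286, the smallest possible with 70 relabellings, and an adjusted p of 0.0429 over 6 tests (two-sided). These relabellings ignore the ovary batch. With the replicate number taken as that batch and used as a block, 16 sign flips give no p under 0.125, and all 4 calls were lost (adjusted p = 0.188). That the same number stands for the same batch in every group is an assumption. ID3 and ID2 were not told apart, with 0.22 ± 0.18 for ID3 minus ID2 in BMP6 against control (exact p = 0.343, adjusted p = 0.343) and 0.19 ± 0.12 in LH+BMP6 against LH (exact p = 0.171, adjusted p = 0.206).

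The larger ID1 change rests on the brighter ID1 probe set. Averaging the probe sets of each gene put ID1 minus ID2 at 0.15 (exact adjusted p = 0.343) and ID1 minus ID3 at -0.23 (adjusted p = 0.114) in BMP6 against control. In LH+BMP6 against LH these were -0.05 (adjusted p = 0.771) and -0.43 (adjusted p = 0.0857). That average bears on ID1 only so far as the dimmer probe set measures it. The levels themselves are not compared between genes, since probe sets differ in brightness. Probe sets of 1 gene also gave changes of unlike size, such as 1.40 and 1.09 for ID2 in BMP6 against control. Whether the ID1 transcript itself changed more than those of ID2 and ID3 was therefore not tested.

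**Figure D3:**
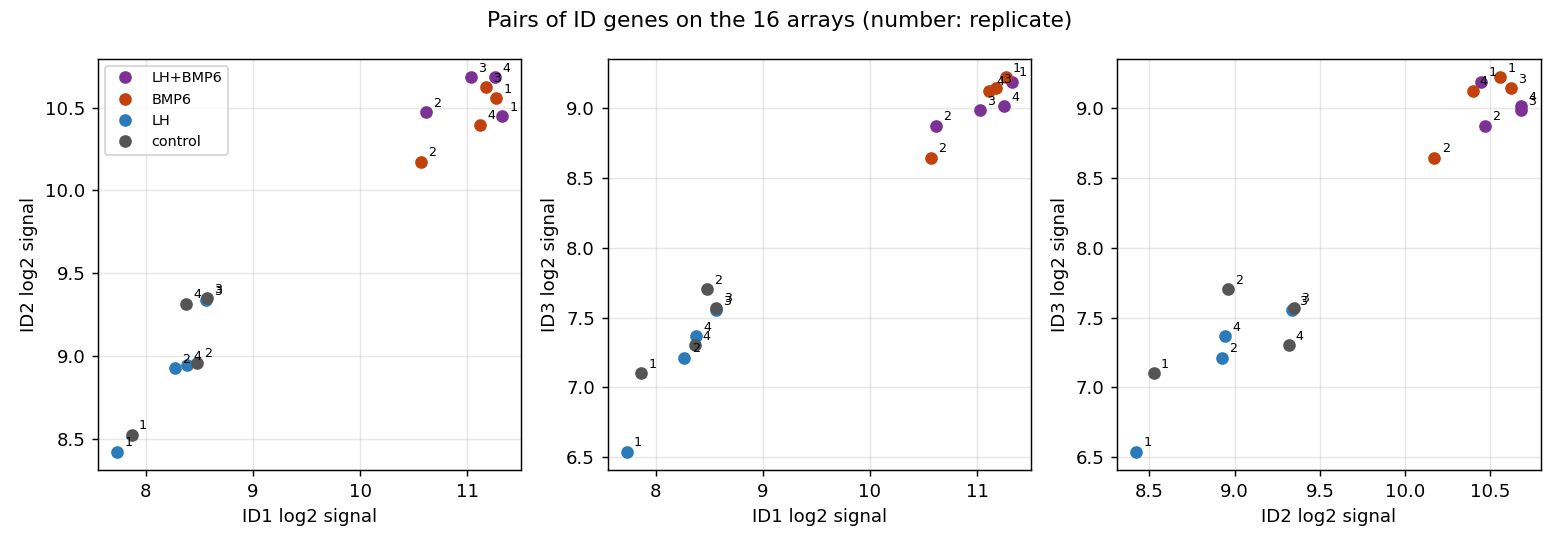
Log2 signals of ID1 and ID2 (left), ID1 and ID3 (middle) and ID2 and ID3 (right) on the 16 arrays, each gene by its brightest probe set, coloured by group and numbered by replicate. The 8 arrays with BMP6 lie in 1 cloud at the upper right and the 8 without it in another at the lower left, with LH replicate 1 and control replicate 1 lowest in the lower cloud.

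Upstream of the ID genes, the ligands, receptors and SMADs named on the array differed by 0.62 or less in either direction. They are given here beside the share of all named genes called, which in BMP6 against control was 9.31% higher and 15.5% lower. In LH+BMP6 against LH it was 11.7% higher and 15.5% lower. The median difference over all named genes was -0.02 and -0.03 in these comparisons.

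Of 13 listed ligands of the BMP family 9 were measured, and 1 was called higher in BMP6 against control and 0 in LH+BMP6 against LH (medians 0.08 and -0.05). It was BMP2, a ligand of the same receptors, at 3.99 ± 0.25 with BMP6 and 3.58 ± 0.08 in control (0.42 ± 0.11, adjusted p = 0.0101 by limma), both under the lower quartile of the arrays. Its call was lost without all arrays of replicate 2 or 4 or without the 3 weak-spike arrays (adjusted p 0.0571 to 0.113). BMP4 was at -0.35 in BMP6 against control (adjusted p = 0.073) and at -0.37 in LH+BMP6 against LH (adjusted p = 0.0521), called in neither. With the replicate block it was called lower in both (adjusted p = 0.0173 and 0.011 by limma). In LH+BMP6 against LH it was also called without LH replicate 2 or LH+BMP6 replicate 4 (0.0199 and 0.0211). The annotation gives no probe set the symbol BMP6.

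Of 13 listed receptors and co-receptors 8 were measured, with 3 called higher and 1 lower in BMP6 against control, and 1 higher and 1 lower in LH+BMP6 against LH (medians 0.03 and 0.07). Without the 3 weak-spike arrays 2 were called higher and 1 lower in each comparison. ACVR1 was at 0.20 in LH+BMP6 against LH and was not called (adjusted p = 0.0617 by limma). It was called higher there without LH replicate 1, all arrays of replicate 1 or the 3 weak-spike arrays (adjusted p 0.0352 to 0.041). BMPR1B, a type I receptor of BMP6 known in sheep for its effect on ovulation rate, fell by 0.45 ± 0.11 in BMP6 against control (adjusted p = 0.00757 by limma) and by 0.48 ± 0.11 in LH+BMP6 against LH (adjusted p = 0.00435). Those calls were lost without all arrays of replicate 3 or 4 in the one (adjusted p 0.0562 to 0.0604) and of replicate 3 in the other (adjusted p = 0.0552). ENG, endoglin, a co-receptor best known from endothelial cells, rose by 0.62 ± 0.16 in both (adjusted p = 0.0105 and 0.00902). The ENG calls were lost without all arrays of replicate 3 or 4 in the one (adjusted p 0.0517 to 0.0566) and of replicate 1 in the other (adjusted p = 0.11).

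The type II receptors BMPR2 (0.43 ± 0.13, adjusted p = 0.0296 by limma) and ACVR2A (0.32 ± 0.10, adjusted p = 0.0327) rose in BMP6 against control. In LH+BMP6 against LH they were at 0.33 (adjusted p = 0.0927) and 0.10 (adjusted p = 0.522) and were not called. BMPR2 was called higher there without LH replicate 4 (adjusted p = 0.0438 by limma). Its call in BMP6 against control was lost without control replicate 1, 2 or 4, BMP6 replicate 1, 2 or 3, or all arrays of replicate 1, 2 or 3 (adjusted p 0.0529 to 0.164). The ACVR2A call was lost without any 1 of the control arrays, without BMP6 replicate 2, 3 or 4, without all arrays of replicate 2, 3 or 4, and without the 3 weak-spike arrays (adjusted p 0.0501 to 0.141).

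Of 15 listed SMADs and SMAD-binding regulators 5 were measured, with 2 called higher in BMP6 against control and 1 in LH+BMP6 against LH (medians 0.11 and 0.17), and 0 in either without the 3 weak-spike arrays. PPM1A, a phosphatase that turns off activated SMADs, rose by 0.29 ± 0.07 in BMP6 against control (adjusted p = 0.00726 by limma) and 0.21 ± 0.07 in LH+BMP6 against LH (adjusted p = 0.0411). The PPM1A call in BMP6 against control was also lost without all arrays of replicate 3 (adjusted p 0.0679 to 0.0681 over these alternatives). In LH+BMP6 against LH it was also lost without LH replicate 2 or 3, LH+BMP6 replicate 1, 2 or 3, or all arrays of replicate 1, 2 or 3 (0.0538 to 0.249 over these alternatives). SMAD4, the shared partner of the receptor-activated SMADs, rose by 0.25 ± 0.08 in BMP6 against control (adjusted p = 0.0444). That call was lost without any single array other than BMP6 replicate 3 or control replicate 4, without all arrays of any 1 replicate number and without the 3 weak-spike arrays (adjusted p 0.0565 to 0.289). For SMAD6 and SMAD7, inhibitory SMADs that are BMP targets elsewhere, no probe set has that symbol in the annotation used here.

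Of 14 listed extracellular antagonists and modulators 6 were measured, with 0 called in BMP6 against control and 3 called higher in LH+BMP6 against LH (medians 0.29 and 0.40), and 0 there without the 3 weak-spike arrays. FST, follistatin, which binds activins and BMPs, was at 10.85 ± 0.44 in LH+BMP6 and 10.16 ± 0.38 in LH cultures (0.68 ± 0.22, adjusted p = 0.0353 by limma). SOSTDC1, an antagonist of BMPs and Wnt proteins, was called higher (adjusted p = 0.0258), at 4.17 ± 0.67 in LH+BMP6 and 3.36 ± 0.05 in LH cultures. Both means lie under the lower quartile of the arrays, so the size of that difference is uncertain. CRIM1, a membrane protein that binds BMPs, differed by 0.52 ± 0.14 (adjusted p = 0.0129). The SOSTDC1 call was lost without LH or LH+BMP6 replicate 1 or all arrays of replicate 3 or 4 (adjusted p 0.0596 to 0.107 counting the alternative without the 3 weak-spike arrays), and that of CRIM1 without all arrays of replicate 1 or 4 (0.0529 to 0.103). The FST call was lost without LH replicate 1, 3 or 4, LH+BMP6 replicate 1, 2 or 3, or all arrays of replicate 1 or 3 (adjusted p 0.0602 to 0.20). In BMP6 against control FST was at 0.47 (adjusted p = 0.162) and SOSTDC1 at 0.66 (adjusted p = 0.0739). With the replicate block both were called higher there (0.0447 and 0.0172 by limma). SOSTDC1 was also called there without BMP6 replicate 2 or all arrays of replicate 1 (at most 0.0491). CRIM1 was called there without BMP6 replicate 2 or all arrays of replicate 2 (0.0155 and 0.0202), and FSTL3 without control replicate 3 (0.0484).

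Of 22 other reported BMP targets 7 were measured, with 2 called higher and 1 lower in BMP6 against control and 2 higher in LH+BMP6 against LH (medians 0.15 and 0.01). BAMBI, a decoy receptor that dampens BMP signals, was at 8.54 ± 0.08 with BMP6 and 6.97 ± 0.34 in control (1.58 ± 0.13, adjusted p = 5.82e-07 by limma), and at 8.53 ± 0.15 in LH+BMP6 and 7.19 ± 0.11 in LH cultures (1.34 ± 0.13, adjusted p = 2.72e-06). TMEM100, a membrane protein known as a BMP target in endothelial cells, was at 8.95 ± 0.59 with BMP6 and 7.20 ± 0.49 in control (1.75 ± 0.29, adjusted p = 0.000443), and differed by 1.72 ± 0.29 in LH+BMP6 against LH (adjusted p = 0.000441). Their differences of 1.34 to 1.75 lie beside 1.40 to 1.85 for ID2 and ID3, and their calls were kept in each of 14 alternatives that left out arrays or added a replicate block. JAG1, a Notch ligand, fell by 0.33 ± 0.11 in BMP6 against control (adjusted p = 0.0402). Its call was lost without any single array other than BMP6 replicate 2, without all arrays of replicate 1, 3 or 4 and without the 3 weak-spike arrays (adjusted p 0.0613 to 0.179). HEY1, a Notch and BMP target, was not called (-0.07, adjusted p = 0.773, and -0.04, adjusted p = 0.852), at a signal near 3.76 with BMP6 and 3.83 in control.

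Among the bHLH partners and relatives of the ID proteins, 12 of 32 listed were measured. BMP6 against control called 3 higher and 0 lower, and LH+BMP6 against LH 4 higher and 0 lower (medians 0.10 and 0.02). TCF12, an E protein and so a direct partner of the ID proteins, was at 10.63 ± 0.14 with BMP6 and 9.80 ± 0.18 in control (0.83 ± 0.09, adjusted p = 1.53e-05 by limma), and at 10.43 ± 0.06 in LH+BMP6 and 9.76 ± 0.15 in LH cultures (0.67 ± 0.09, adjusted p = 9.40e-05). The other E proteins stayed closer to 0. TCF4 rose by 0.52 ± 0.15 in LH+BMP6 against LH (adjusted p = 0.0201) but was at 0.24 (adjusted p = 0.31) in BMP6 against control, and TCF3 was at 0.14 (adjusted p = 0.283) and 0.16 (adjusted p = 0.201). The TCF4 call was lost without LH replicate 1, LH+BMP6 replicate 4 or all arrays of replicate 2 or 4 (adjusted p 0.0642 to 0.132).

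TCF21, a bHLH factor of mesenchymal cells that acts with E proteins, rose by 0.67 ± 0.09 in BMP6 against control (adjusted p = 6.76e-05 by limma) and 0.77 ± 0.09 in LH+BMP6 against LH (adjusted p = 1.64e-05). BHLHE40, a bHLH repressor with its own DNA-binding region, rose by 1.45 ± 0.22 (adjusted p = 0.000222) and 1.55 ± 0.22 (adjusted p = 0.000109). The calls of TCF12, TCF21 and BHLHE40 were kept in each of these 14 alternatives. So ID genes and 1 of the 3 measured E proteins were both higher with BMP6 in both comparisons.

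The 18 genes listed as ID or E protein targets in other systems include factors, such as ETS2, whose action ID proteins oppose. Of the 18, 11 were measured. BMP6 against control called 2 higher and LH+BMP6 against LH called 4 higher (medians 0.14 and 0.33), with 0 lower in either. THBS1, thrombospondin, an inhibitor of vessel growth that ID1 represses in mouse cells, was at 13.04 ± 0.05 with BMP6 and 12.35 ± 0.44 in control (0.69 ± 0.21, adjusted p = 0.028 by limma), and differed by 0.99 ± 0.21 in LH+BMP6 against LH (adjusted p = 0.0026). Those values are of its brightest probe set, and its 6 probe sets disagreed. Of the 6, 3 were called higher and 1 lower in LH+BMP6 against LH, the lower one at 9.55 ± 0.10 in LH+BMP6 and 9.89 ± 0.31 in LH cultures (-0.35 ± 0.11, adjusted p = 0.0314). In BMP6 against control 2 were called higher and 0 lower. The call of the brightest one in BMP6 against control was lost without control replicate 1 or 2, BMP6 replicate 1, 3 or 4, or all arrays of replicate 2 or 4 (adjusted p 0.0514 to 0.107). ETS2, a transcription factor whose action ID1 opposes in human cells, rose by 0.48 ± 0.13 (adjusted p = 0.0132, lost without control replicate 1, without all arrays of replicate 2 or 3, and without the 3 weak-spike arrays, at adjusted p 0.0529 to 0.103) and by 0.66 ± 0.13 with LH (adjusted p = 0.00135).

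ETS1, of the same family, and CKM, the muscle creatine kinase driven by E proteins, were called in LH+BMP6 against LH (0.62 ± 0.17, adjusted p = 0.0137, and 0.89 ± 0.16, adjusted p = 0.000711, by limma). In BMP6 against control they were at 0.42 (adjusted p = 0.104) and 0.42 (adjusted p = 0.0838), and neither was called. With the replicate block both were called higher there (adjusted p = 0.027 and 0.00504 by limma). ETS1 was also called there without BMP6 replicate 1 or all arrays of replicate 1 (0.0135 and 0.0295). The ETS1 call was lost without all arrays of replicate 2 or 4 or without the 3 weak-spike arrays (adjusted p 0.0516 to 0.079). CDKN1A, also on this list, was at 0.28 and 0.33 in the 2 comparisons and was not called (adjusted p = 0.163 and 0.0852 by limma). It was called higher in both without all arrays of replicate 1 or without the 3 weak-spike arrays. Leaving out only control replicate 1, or LH replicate 1 with LH, did the same (adjusted p 0.0384 to 0.0421 and 0.00806 to 0.0345 over these).

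Some markers of other cells were also called with BMP6, and their part in the ID differences was not tested. Of all named genes 9.31% were called higher and 15.5% lower in BMP6 against control. In LH+BMP6 against LH these shares were 11.7% and 15.5%. The endothelial count of 1 of 11 called lower, given below, lies under the share in both comparisons. The mean over 7 of 9 leukocyte markers was 6.33 to 6.68 on LH+BMP6 and 6.11 to 6.68 on BMP6 arrays, against 5.76 to 6.20 on LH and 5.99 to 6.16 on control arrays. CD14, a monocyte marker, rose by 1.13 in BMP6 against control, where 1 of 7 was called. In LH+BMP6 against LH 4 of 7 were called higher, or 2 without the 3 weak-spike arrays. CD68 was at 0.20 in BMP6 against control and was not called. CSF1R (0.03 and -0.01), CD79A (-0.03 and -0.17) and ITGAM (0.23 and 0.04) were called in neither comparison. The replicate block also called PTPRC, CD3E and ITGAM higher in BMP6 against control (adjusted p at most 0.049 by limma). In LH+BMP6 against LH the CD68 call was lost in 8 of 14 alternatives, that of PTPRC in 3, and those of CD14 and CD3E in 1 each. The mean over 10 of 10 pericyte and fibroblast markers was 9.44 to 9.77 on LH+BMP6 and 9.47 to 9.84 on BMP6 arrays, against 9.17 to 9.68 on LH and 9.19 to 9.56 on control arrays, with 4 of 10 called higher in BMP6 against control, and 3 higher and 1 lower in LH+BMP6 against LH. The lower one was RGS5, a pericyte marker (-0.84, adjusted p = 0.0469), whose call was lost in 10 of 14 alternatives (adjusted p 0.0588 to 0.175). Without the 3 weak-spike arrays 4 were called higher and 0 lower in LH+BMP6 against LH. RGS5 kept its call there with the replicate block. That block also called RGS5 lower in BMP6 against control (-0.50, adjusted p = 0.0103 by limma, 0.262 without the block). It further called PDGFRB higher in BMP6 against control and LUM in LH+BMP6 against LH (adjusted p = 0.0441 and 0.048). The mean over 11 of 12 endothelial markers was 5.39 to 5.85 on LH+BMP6 and 5.40 to 5.94 on BMP6 arrays, against 5.91 to 6.28 on LH and 5.70 to 6.24 on control arrays. Of these 11, 1 was called lower in each comparison, and 0 in BMP6 against control and 3 in LH+BMP6 against LH without the 3 weak-spike arrays. It was CLDN5, a junction protein of endothelial cells, which fell by 1.03 in LH+BMP6 against LH (adjusted p = 0.0115 by limma), a call lost in 1 of 14 alternatives, without all arrays of replicate 3 (adjusted p = 0.0798). CLDN5 fell by 0.88 in BMP6 against control (adjusted p = 0.0316), and this was no longer called without BMP6 replicate 1 or 2, control replicate 3 or 4, all arrays of replicate 2, 3 or 4, or the 3 weak-spike arrays (adjusted p 0.0602 to 0.104). With the replicate block PECAM1, CDH5, EMCN and ROBO4 were also called lower in LH+BMP6 against LH (adjusted p 0.00139 to 0.00534 by limma), and EMCN in BMP6 against control (adjusted p = 0.0295). Of 7 theca markers 6 were called lower in BMP6 against control and 7 in LH+BMP6 against LH, and of 6 granulosa markers 1, CDH2, was higher in both (1.67 and 1.77).

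Other named genes followed the ID genes across the 16 arrays, which share 4 ovary batches and the split by BMP6, so the correlations only describe likeness. Of 9152 candidates the 5 nearest to ID1 were ROR2, a Wnt receptor (Pearson r = 0.988), MTURN (0.98), SRPX (0.979), the growth factor receptor FGFR2 (0.977) and UPK1B (0.977). The 5 nearest to ID2 were YWHAQ, a 14-3-3 protein (0.98), WSB1 (0.979), ROR2 (0.978), the protease gene CTSK (0.975) and LHFPL2 (0.975). The 5 nearest to ID3 were DKK3 (0.976), ANKRD1 (0.973), the annexin gene ANXA2 (0.973), SRPX (0.969) and CD99 (0.967). ROR2 stood near both ID1 and ID2, and SRPX near both ID1 and ID3. Between BMP6 and control ROR2 differed by 2.11 ± 0.19 and SRPX by 1.37 ± 0.14. These genes were picked for likeness to ID genes over the same arrays, so such differences follow from the choice.

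With every gene centred on its own group means, which takes the treatments out, the genes nearest to the mean of ID1, ID2 and ID3 were others. They were PAK1, a protein kinase (r = 0.967), RHNO1 (0.948), NCAPG, a subunit of condensin (0.947), MYADM (0.94) and FXYD6 (0.934). They are the top of 9152 candidates, so their r values are high by choice. Of these, only FXYD6 was called in BMP6 against control (0.77 ± 0.24, adjusted p = 0.0354 by limma). PAK1 (0.07 ± 0.22, adjusted p = 0.886), RHNO1 (0.04, 0.925), NCAPG (0.45, 0.242) and MYADM (0.22, 0.241) were not.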

How the data were processed

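Bovine theca cell RNA was measured on 16 arrays in 4 groups of 4. The deposited values are log2 signals that the authors made with RMA in Affymetrix Expression Console, per the submitters' processing notes; the sources used here do not give its version. They were used as deposited. Of 24128 probe sets, 112 control probe sets were left out and 24016 tested, with no filter on signal. The platform annotation gave 1 symbol to 13292 probe sets, several to 86 and none to 10638, and the named ones stand for 9155 genes. A gene is given by its probe set with the highest mean signal, and other ID probe sets stand beside it.

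limma 3.58.1 in R 4.3.3 fitted a coefficient for each group over 16 arrays (lmFit, eBayes with an intensity trend). P values are two-sided and Benjamini-Hochberg adjusted over 24016 probe sets, and calls need an adjusted p under 0.05. Unless another test is named, adjusted p is from limma. "Rank" is by difference among named genes. The fit was tested on simulated data. Exact permutation tests used 70 relabellings. Precision rests on the number of arrays (median SE of a difference 0.102). Array medians were 6.10 to 6.16, and arrays of a group correlated at r = 0.990 to 0.997 across probe sets.

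The members and the gene lists were chosen with earlier results of these data known. Named were the ID probe sets, up to 4 called genes of each pathway list with the largest difference in each BMP6 comparison, BAMBI, TMEM100, HEY1, TCF3, TCF4, TCF12, and the 5 genes most like each member. BMP4, ACVR1, FSTL3, CDKN1A, HM13, REM1, BCL2L1 and RPL11, the markers named beside their lists and genes named as absent were chosen apart from that rule. Promoter and protein sequences were not analysed here. Replicate numbers come from the labels, and same-numbered arrays did not meet the criterion for pairs, a correlation of deviations over 0.1 in every pair. Alternatives covered the replicate block, other limma settings (statmod 1.5.0), a filter on dim probe sets (mean signal under percentile 40), quantile normalization, averaged probe sets, and arrays left out. Python 3.11.15, pandas 2.3.3, numpy 2.4.6, scipy 1.17.1 and matplotlib 3.10.9 made tables and figures.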

Additional observations from a re-analysis of the deposited data

Results flagged for a closer look

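In 2 of the 20 probe set and group combinations checked, 1 array stood apart from the other 3 by Dixon's test, and chance flags about 1 in 20 groups. For ID3 it was BMP6 replicate 2, the lowest of its group at a log2 signal of 8.65. The same array was also lowest of its group for ID1 and ID2. For the dimmer ID1 probe set it was BMP6 replicate 4, the highest of its group at 4.24, where all 4 arrays lay within 4.21 to 4.24.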

How the results depend on the processing

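The brighter ID1, both ID2 probe sets and the ID3 probe set were called higher in all 3 comparisons of BMP6 cultures with cultures lacking it in every limma alternative run. Over 22 alternatives that kept the probe set, BMP6 against control ranged over 2.48 to 2.92 for ID1, 1.19 to 1.51 for ID2 and 1.39 to 1.84 for ID3, with a highest adjusted p of 0.00849 over the 4 probe sets. LH+BMP6 against LH ranged over 2.56 to 2.98, 1.50 to 1.81 and 1.58 to 1.99. Only the exact permutation test, which cannot go below 0.0286, missed the threshold after adjustment over 25 tests (0.055), at the same differences of 2.71, 1.40 and 1.62 for BMP6 against control, 2.82, 1.66 and 1.85 for LH+BMP6 against LH, and 2.73, 1.53 and 1.60 for LH+BMP6 against control. 

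The replicate block changed no call of an ID probe set by limma (ID1 2.71, adjusted p = 1.76e-07, in BMP6 against control). Same-numbered arrays correlated in their deviations at a mean r of 0.38 for LH+BMP6 and BMP6 (0.08 to 0.69), 0.20 for LH+BMP6 and LH, 0.16 for LH and control, 0.04 between BMP6 and control and 0.02 for LH+BMP6 and control, against -0.12, -0.07, -0.05, -0.01 and -0.01 for different numbers; in each of the 5 at least 1 pair was under 0.1. For ID1 minus ID2 and ID1 minus ID3 the replicate block allowed 16 sign flips and no p under 0.125. It gave an adjusted p of 0.188 for 1.31, 1.09, 1.16 and 0.97, the values of ID1 minus ID2 and minus ID3 in BMP6 against control and then in LH+BMP6 against LH. With averaged probe sets they were 0.15, -0.23, -0.052 and -0.43. The dimmer ID1 probe set brings these down.

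Differences that were not called changed sign in some alternatives, and the cause was not tested. Leaving out replicates, LH against control ranged over -0.24 to 0.084 for ID1, -0.30 to 0.032 for ID2, -0.19 to 0.16 for the dimmer ID2 probe set and -0.11 to 0.0037 for the dimmer ID1 probe set. LH+BMP6 against BMP6 ranged over -0.13 to 0.17 for ID1 and -0.15 to 0.044 for ID3, and the ID1 interaction over -0.060 to 0.26. For the dimmer ID1 probe set LH+BMP6 against LH ranged over -0.053 to 0.066 and LH+BMP6 against control over -0.089 to 0.014. With averaged probe sets ID1 was at -0.042 in LH+BMP6 against BMP6. Without the 3 weak-spike arrays the dimmer ID1 probe set was at -0.044 in LH+BMP6 against LH (-0.016 with weak spikes as a term) and the dimmer ID2 probe set at 0.14 in LH against control.

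Counts of called probe sets also moved. Leaving out replicates, they were 2703 to 4049 in BMP6 against control (4340 with all arrays), 2963 to 4867 in LH+BMP6 against LH (4879), 2754 to 4262 in LH+BMP6 against control (4635) and 0 to 6 in LH against control (3). Without the 3 weak-spike arrays they were 2660 in BMP6 against control, 2837 in LH+BMP6 against control and 0 in LH against control. With weak spikes as a term they were 2766 and 2774 in BMP6 and in LH+BMP6 against control. With only the arrays compared, 1 was called in LH against control. The count without the 3 weak-spike arrays, chosen as an alternative for the gene lists after seeing the data, was 0 in place of 1 for ligands and for endothelial markers in BMP6 against control. In LH+BMP6 against LH it was 3 in place of 1 for endothelial and 2 in place of 4 for leukocyte markers.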

Other observations

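Some genes next to ID1 and ID3 in the RefSeq order of assembly ARS-UCD2.0 are named on the array, and they were looked up after the values were seen. HM13, beside ID1, was higher by 0.23 ± 0.07 in BMP6 against control (adjusted p = 0.0354 by limma) and by 0.42 ± 0.07 in LH+BMP6 against LH (adjusted p = 0.000514). REM1 on that side was at 0.27 (adjusted p = 0.239) and -0.10 (adjusted p = 0.706), and BCL2L1 on the other side at 0.03 in both (adjusted p = 0.868 and 0.874). RPL11, near ID3, fell by 0.17 ± 0.05 in BMP6 against control (adjusted p = 0.0426) and was at -0.12 in LH+BMP6 against LH (adjusted p = 0.133).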
